A study of Drosophila melanogaster with 57 samples.

Results

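The libraries described here are those of whole adult females in which the X-linked gene *Cbs* was deleted (genotype CBS(8), 3 libraries) and of control females (genotype 58492, 3 libraries), which are 6 of the 57 libraries of the series. They were chosen by their labels for sex, tissue and genotype. The series holds *Drosophila melanogaster* strains with deletions of 3 genes of sulphur metabolism, sequenced as poly(A) RNA from whole bodies and thoraxes of both sexes. CBS(8) females are 1 independent line in which CRISPR/Cas9 was used to replace *Cbs* with a construct carrying an mCherry reporter, so that properties of that line and of the deletion cannot be told apart. Control females are stock 58492, with the alleles y1, w1118 and DNAlig4169 and a Cas9 transgene driven by the Act5C promoter. Whether CBS(8) flies keep that transgene is not given in the sources used here. Flies of both groups were 5 days old, and were kept at 23 °C with the sexes apart and about 20 flies in a vial. The labels do not say that replicates came from separate cultures, so p-values measure the spread between these libraries, which may be technical. Further groups of 3 libraries each were used beside them. CBS(5) females are an independent line with the same gene deleted. MST females lack the mercaptopyruvate sulphurtransferase gene *CG12279*. CBS(8) males were compared with control males. MST males and control female thoraxes (genotype 58492) served to define gene classes. The fit for each sex also held the other whole-fly strains, which enter the estimate of the spread. These were CSE(8), with the cystathionine gamma-lyase gene deleted, CBS/CSE(1) and CBS/CSE(2), with that gene and *Cbs* deleted, and CBS(5) and MST males.

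Cystathionine beta-synthase, the product of *Cbs*, condenses homocysteine with serine and so opens the route by which sulphur from methionine reaches cysteine, glutathione and hydrogen sulphide. Cystathionine gamma-lyase, encoded by *Cth*, takes the next step. In a whole female the ovaries supply a large part of the RNA, because nurse cells load the growing oocyte with the transcripts of early embryogenesis. A smaller share of ovary RNA in a library therefore raises the share of every other organ, even where no gene of that organ is regulated. For this reason each level below was examined on 3 scalings. Shares are relative, so a smaller number of ovary cells, less RNA per ovary cell and more RNA in other organs cannot be told apart.

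Deletion of *Cbs* was visible in every library. *Cbs* (FBgn0031148, chromosome X, 21045138 to 21049096, dm6) had 1.34, 1.12 and 1.04 CPM in CBS(8) females, against 210, 193 and 212 CPM in control females, a log2 fold change of -7.44 ± 0.15 (SE, adjusted p = 1.28e-16). CPM are counts per 1e6 scaled by the TMM method, and adjusted p-values are from edgeR's quasi-likelihood test. The other enzymes of hydrogen sulphide production did not pass the test in females. *Cth* had 121, 130 and 120 CPM in CBS(8) females, against 123, 114 and 120 CPM in control females. *CG12279* had 12.1, 13.5 and 11.4 CPM in CBS(8) females, against 16.4, 13.4 and 15.4 CPM in control females.

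The libraries held 22787843, 20758440 and 19612605 gene counts in CBS(8) females, against 20772776, 22880443 and 19959502 in control females. Of the markers of other sexes and tissues, 0 of 16 late spermatid genes passed the filter on low counts in females and 1 of 16 genes of seminal fluid and accessory gland did, while the yolk protein genes *Yp1*, *Yp2* and *Yp3* were among the most abundant, so the libraries fit their label as whole females. All 3 libraries of each group differed from one another by more than counting noise. Libraries outside the pair of groups also stood apart. The control female thorax libraries, used only to define gene classes, differed widely from one another. Thorax library 1 had 31.3% of its reads on overlapping genes and 25.7% on no gene. Thorax library 2 had 37.5% on no gene, against 2.26% in thorax library 3. The thorax-type genes described below held 8.81%, 42.2% and 54.7% of gene counts in thorax libraries 1, 2 and 3. CBS(5) female library 3 had 13.2% of its gene counts on the ovary-type genes described next, against 19.8% and 20.2% in libraries 1 and 2. CBS(8) male libraries 1 and 2 held 5.63% and 5.43% of counts on those genes, against 2.89% in CBS(8) male library 3 and 3.14% to 4.02% in control males, and *dhd*, a gene of the female germline, had 386, 510 and 27.5 CPM in the 3 CBS(8) male libraries. The part of this in the male values given below was not tested.

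Ovary RNA took a smaller share of the libraries of CBS(8) females. A set of 1423 ovary-type genes was defined without the 6 libraries compared, as genes at 5 CPM or more in MST females and at least 4 times higher there than in MST males and in control female thoraxes. These genes held 17.21%, 16.39% and 16.78% of gene counts in CBS(8) females (mean 16.79% ± 0.413 SD, n = 3), against 20.96%, 21.38% and 20.77% in control females (mean 21.03% ± 0.311 SD, n = 3). The groups did not overlap, and CBS(8) females had 0.798 times the share of control females (difference -4.24 points, exact permutation test, two-sided p = 0.1, the smallest value that 3 against 3 can give). MST females, with 20.7%, 20.8% and 20.3%, were close to the control, although their libraries took part in the choice of the genes. The 2366 thorax-type genes, at least 1.5 times higher in control female thoraxes than in MST females, held 15.4%, 15.2% and 15.9% in CBS(8) females, against 11.3%, 10.7% and 8.93% in control females. Their share was thus 1.503 times that of the control (exact permutation test, p = 0.1). Both classes set the MST strain against thoraxes of the control stock, so genes that differ between these strains can enter them. The thorax-type gene *CG31955* had a mean of 1.54 CPM in MST females and 12.4 CPM in control females. The ovary-type gene *XRCC1* had means of 63.2 and 18.8 CPM.

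**Figure D1:**
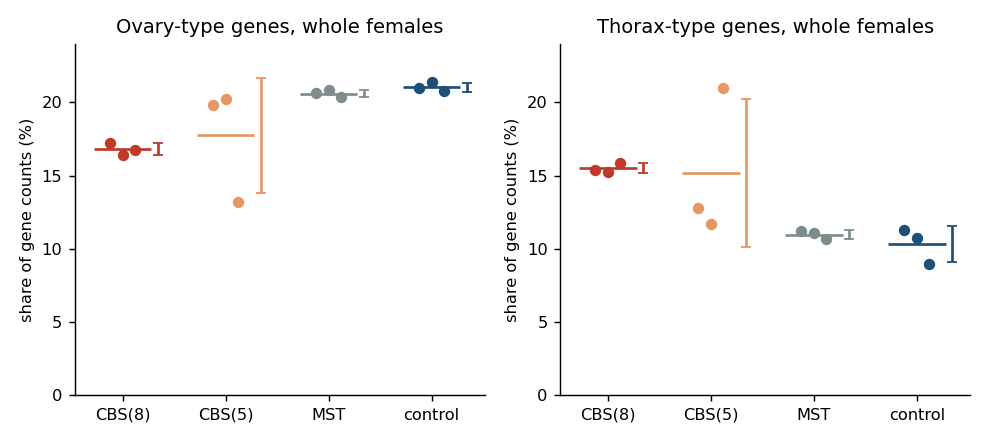
Share of gene counts (%) on ovary-type genes (left) and thorax-type genes (right) in each whole-female library of CBS(8), CBS(5), MST and control, with points for libraries, a horizontal line for the mean and a bar beside it for ± 1 SD (n = 3). CBS(8) libraries lie between 16.4% and 17.2% for ovary-type genes, below all 3 control libraries, and CBS(5) library 3 stands apart at 13.2%.

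With libraries scaled on all genes, 1754 of 10548 tested genes (16.6%) were called higher in CBS(8) females and 844 (8%) lower, at an adjusted p under 0.05. With only the 2 groups in the fit 2474 were higher and 2188 lower. Without control library 3 these counts were 1109 and 407, without CBS(8) library 3 1175 and 406, without CBS(8) library 1 1333 and 475, and without control library 1 1284 and 543. The direction of change differed between the gene classes. Of the thorax-type genes 927 rose and 45 fell, with a median log2 fold change of 0.69. Of the ovary-type genes 14 rose and 203 fell, with a median of -0.32. The 6759 remaining genes lay between, with 813 higher, 596 lower and a median of -0.05.

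Genes were also arranged by their ratio of whole-female to whole-male CPM in the MST strain, a measure that uses none of the 6 libraries. The median log2 fold change was 0.59 in the 322 genes over 16 times lower in females than in males, and 0.86 in the 217 genes 8 to 16 times lower. It was 0.71 in the 1495 genes that were 4 to 8 times lower. It was 0.19 in genes up to 2 times lower in females and -0.10 in genes up to 2 times higher. It was -0.35 in the 592 genes over 8 times higher in females than in males. The median thus fell from group to group except at the most male-biased end.

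**Figure D2:**
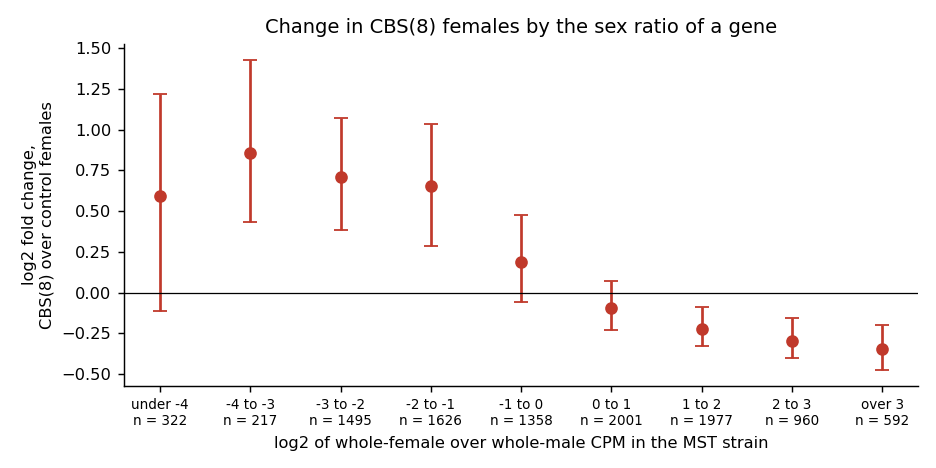
Log2 fold change of CBS(8) over control females for genes grouped by the log2 ratio of whole-female over whole-male CPM in the MST strain, with points for medians and bars for the quartiles, and the number of genes under each group. From -4 to -3 upward the median falls at each step, to -0.35 in the most female-biased genes, while the most male-biased genes lie at 0.59, below their neighbours.

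Scaling on thorax-type genes sets the median of these 2366 genes near no change (-0.01) and moves the median of all genes to -0.69. The 6759 genes of no class have a median of -0.75 on it. Of 81 cytochrome P450 genes 40 are thorax-type genes, and of 18 Malpighian tubule genes 11. This scaling therefore does not set every tissue outside the ovary to no change. On this scaling 728 genes (6.9%) were higher and 5220 (49.5%) lower. With the class chosen from thorax libraries 2 and 3 only, 830 genes were higher and 4315 lower. With the full class the lower count depended on single libraries, being 4164 without control library 2 but 576 without control library 3. It was 641 without CBS(8) library 3, 735 without CBS(8) library 1, 1180 without control library 1 and 1416 without CBS(8) library 2. Without any 1 library 398 to 639 genes were higher. Of the 1754 genes higher on the all-gene scaling 726 remained higher, 1028 were no longer called, and 0 were called lower. The 726 are those that rose beyond the general rise in the share of thorax-type genes. Scaling on ovary-type genes moves the median of all genes to 0.33 and gave 2043 genes (19.4%) higher and 252 (2.39%) lower. The 252 are the genes that fell beyond the general fall in the share of ovary-type genes. Under all 3 scalings 721 genes were higher and 252 lower. The scalings differ by a nearly constant shift of all genes, so their calls largely nest and are not 3 separate tests. Of the 252 only 84 were ovary-type genes, beside 149 of no class and 19 thorax-type genes.

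Genes of oogenesis changed by small amounts, and few of them were called outside the piRNA pathway. Of 26 piRNA pathway genes, which silence transposons in the germline, 9 fell and 0 rose (median log2 fold change -0.33, against 0.01 over all genes), and 4 of them also fell on the ovary-type scaling. *nxf2*, which couples piRNA targeting to silencing of transcription, had 30.6, 29.8 and 26.3 CPM in CBS(8) females, against 63.1, 53.4 and 50.7 CPM in control females (log2 fold change -0.95, adjusted p = 2.74e-05). It fell further than the ovary share, with a log2 fold change of -0.63 on the ovary-type scaling (adjusted p = 0.0253). *squ*, *vret* and *AGO3*, the last a PIWI-family protein of the ping-pong cycle, fell by 0.77, 0.75 and 0.68 on the log2 scale. On the ovary-type scaling they fell by 0.45, 0.43 and 0.35. *squ* and *AGO3* were no longer called without control library 3 (adjusted p = 0.0644 and 0.125) or without CBS(8) library 1 or 3.

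Of 26 genes of germ plasm and oocyte patterning 4 fell and 0 rose (median -0.35). Among ovary-type genes, a class that holds 17 of the 26, 14.3% fell. *nanos*, the posterior determinant of the embryo, had 350, 441 and 374 CPM in CBS(8) females, against 619, 569 and 683 CPM in control females (log2 fold change -0.68, adjusted p = 0.0317). *dhd*, the female germline thioredoxin, had 2554, 2972 and 2478 CPM in CBS(8) females, against 4261, 3626 and 5579 CPM in control females (log2 fold change -0.75, adjusted p = 0.0238). No library of either group overlapped the other for these 2 genes. The yolk protein receptor gene *yl* fell by 0.40 and *fs(1)N*, needed for the vitelline membrane, by 0.42. With 2 libraries in a group these 4 calls were not stable, and *dhd* without control library 3 had an adjusted p of 0.132, *nanos* 0.112, *yl* without CBS(8) library 2 one of 0.132 and *fs(1)N* 0.115.

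Among 26 cyclins and replication genes of the germline and embryo 1 fell, *Orc6* (log2 fold change -0.73), a subunit of the origin recognition complex, although 21 of the 26 had no overlap between groups, all with CBS(8) females below. Of 10548 genes 27.5% had CBS(8) females below control females without overlap and 30.4% above. The 15 chorion genes, which build the late eggshell, summed to 4453, 8114 and 8439 CPM in CBS(8) females, against 12680, 5884 and 5451 CPM in control females, and 0 were called in either direction (median log2 fold change -0.21). The vitelline membrane list had 1 of 11 members lower, *clos*, by 0.37, and a median of 0.29. The call of *clos* was lost in 5 of the 6 fits with a single library left out (adjusted p up to 0.137). The 3 yolk protein genes, made in fat body and follicle cells, were not called on the all-gene scaling, with *Yp1* at 2701, 3254 and 3475 CPM in CBS(8) females, against 2599, 1799 and 1799 CPM in control females.

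**Figure D3:**
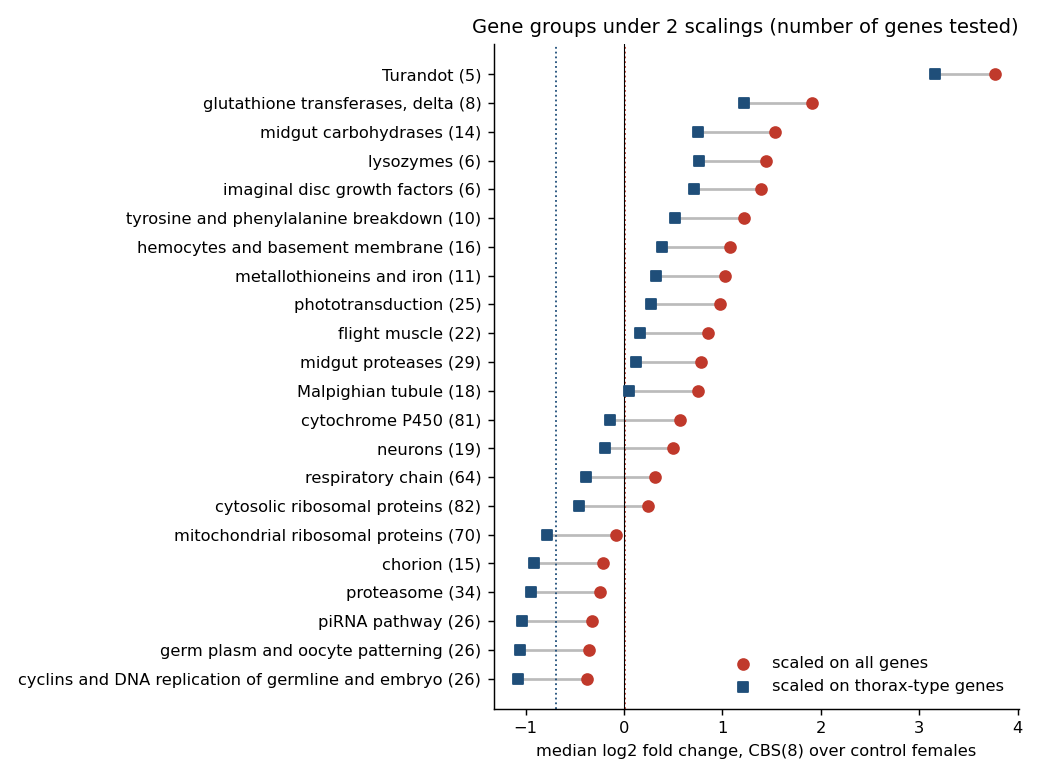
Median log2 fold change of CBS(8) over control females in 22 groups of genes, scaled on all genes (circles) and on thorax-type genes (squares), with the number of genes tested in brackets and dotted lines at the median of all genes on each scaling. Turandot genes lie furthest right on both scalings, and the germline groups lie near -0.35 on the first and near -1 on the second.

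Structural genes of other organs were called higher less often on the thorax-type scaling than on all genes, as were genes in general. Of all genes 16.6% were higher and 8% lower on the all-gene scaling, and 6.9% and 49.5% on the thorax-type scaling. Of 22 flight muscle genes 6 rose on the all-gene scaling and 2 on the thorax-type scaling, with medians of 0.85 and 0.17, and since 20 of them are thorax-type genes the second value is set in part by the scaling. Of 19 neuronal genes 2 rose and 1 fell, and on the thorax-type scaling 0 rose and 3 fell. Of 64 respiratory chain genes, 59 of them thorax-type genes, 4 rose and 0 fell, while on the thorax-type scaling 0 rose and 15 fell. Cytosolic ribosomal protein genes (21 of 82 higher, 1 lower) had 0 higher and 5 lower on the thorax-type scaling. Proteasome genes, whose products degrade proteins, had 7 of 34 lower on the all-gene scaling and 32 of 34 lower on the thorax-type scaling, on which 49.5% of all genes were lower.

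Among genes of stress and detoxification, Turandot genes and glutathione transferases of the delta class had members higher and none lower on every scaling. Cytochrome P450 genes, UDP-glycosyltransferases and glutathione transferases of the epsilon class had more members lower than higher on the thorax-type scaling. The same held over all genes, of which 49.5% were lower and 6.9% higher on that scaling. All 5 tested Turandot genes, which encode small secreted proteins induced by stress and infection, rose on every scaling (median log2 fold change 3.77 on all genes and 3.16 on thorax-type genes). *TotA* had 483, 220 and 82.0 CPM in CBS(8) females, against 7.14, 4.75 and 5.43 CPM in control females (log2 fold change 5.51 ± 0.72 SE, adjusted p = 3.2e-05). The 3 CBS(8) libraries differed widely among themselves, and the lowest still lay above all control libraries. *TotC* followed the same order of libraries, with 331, 153 and 73.5 CPM in CBS(8) females, against 9.22, 5.47 and 7.01 CPM in control females. *TotM* was the exception to separation, with 57.8, 13.9 and 1.97 CPM in CBS(8) females, against 3.82, 1.27 and 2.58 CPM in control females, and without CBS(8) library 1 it was no longer called (log2 fold change 1.64, adjusted p = 0.18). In males *TotA* rose by 3.23 and *TotC* by 3.10 on the log2 scale, whereas *TotM* and *TotX* did not pass the test.

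Glutathione transferases of the delta class, enzymes that attach glutathione to electrophiles, rose in 5 of 8 tested members and fell in 0, on all 3 scalings. *GstD1* had 758, 987 and 787 CPM in CBS(8) females, against 153, 105 and 138 CPM in control females (log2 fold change 2.68 ± 0.21 SE, adjusted p = 1.55e-07). *GstD5* had 8.33, 15.4 and 13.9 CPM in CBS(8) females, against 0.843, 0.424 and 1.00 CPM in control females (log2 fold change 4.06). *GstD2*, *GstD3* and *GstD9* rose by 2.08, 1.84 and 1.99 on the log2 scale. The epsilon class moved both ways, with 2 of 14 members higher and 3 lower, against 16.6% and 8% of all genes. On the thorax-type scaling 2 were higher and 5 lower, against 6.9% and 49.5% of all genes. *GstE5* rose by 2.31 and *GstE14*, which acts in ecdysteroid synthesis, by 1.48, while *GstE10* fell by 1.58, *GstE13* by 0.56 and *GstE11* by 0.45. The call of *GstE11* was lost in 5 of the 6 fits with a single library left out (adjusted p up to 0.144). *GstE10* had 11.2, 11.5 and 9.49 CPM in CBS(8) females, against 33.0, 27.1 and 36.2 CPM in control females. On the ovary-type scaling *GstE10* was still lower (log2 fold change -1.26), whereas *GstE13* and *GstE11* were not called.

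Of 81 cytochrome P450 genes 29 rose and 7 fell, and on the thorax-type scaling, on which 6.9% of all genes were higher and 49.5% lower, 11 rose and 26 fell. *Cyp313a1* had 27.4, 24.1 and 34.5 CPM in CBS(8) females, against 2.18, 3.99 and 3.21 CPM in control females (log2 fold change 3.19 ± 0.34 SE). *Cyp4p2* had 14.8, 13.3 and 15.9 CPM in CBS(8) females, against 0.149, 0.0849 and 0.105 CPM in control females, a ratio of 131 (95% exact interval 63.5 to 328 for counting error only, from 908 and 7 counts). *Cyp6g1*, known from insecticide resistance, rose by 1.83 and *Cyp4ac3* by 1.96. *Cyp6a16*, *Cyp4d21*, *Cyp308a1* and *phtm*, an enzyme of ecdysone synthesis, fell by 1.48, 2.10, 2.41 and 1.46. UDP-glycosyltransferases, another conjugating family, had 11 of 31 members higher and 2 lower, and on the thorax-type scaling 4 higher and 11 lower.

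The sulphur and thiol genes themselves moved less. Of 16 genes of transsulphuration and the methionine cycle 5 rose and 2 fell, among them *Cbs*, against 16.6% and 8% of all genes. On the thorax-type scaling 2 rose and 7 fell, against 6.9% and 49.5% of all genes. *MsrA*, which reduces oxidised methionine, had 160, 203 and 187 CPM in CBS(8) females, against 64.9, 76.8 and 47.7 CPM in control females (log2 fold change 1.54, adjusted p = 8.94e-05). It also rose on the thorax-type scaling (0.86) and in males, by 2.47. *Sam-S*, the S-adenosylmethionine synthase gene, rose by 0.37 and *Bhmt* by 0.60 on the all-gene scaling, and neither was called on the thorax-type scaling. *Gnmt*, glycine N-methyltransferase, which consumes S-adenosylmethionine, had 1.13, 0.818 and 1.81 CPM in CBS(8) females, against 12.8, 3.86 and 7.22 CPM in control females (log2 fold change -2.66, adjusted p = 0.0141, and 0.0629 without control library 1). In males *Gnmt* had 67.4, 86.9 and 86.6 CPM in CBS(8) flies, against 519, 471 and 538 CPM in control flies, a log2 fold change of -2.66 as well. CBS(5) females had 3.41, 2.74 and 8.61 CPM, and *Gnmt* was not called there against control females (-0.70, adjusted p = 0.469). Nor was it called in CBS(8) females against CBS(5) females (-1.96, adjusted p = 0.246) or MST females (-2.06, adjusted p = 0.0662).

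Of 9 genes of glutathione synthesis and thiol repair 2 rose and 0 fell on the all-gene scaling, against 16.6% and 8% of all genes. On the thorax-type scaling 0 rose and 3 fell, against 6.9% and 49.5% of all genes. *Gclm*, the modifier subunit of the enzyme that starts glutathione synthesis, had 196, 192 and 196 CPM in CBS(8) females, against 140, 145 and 146 CPM in control females (log2 fold change 0.44). *Gclc*, the catalytic subunit, had a log2 fold change of 0.33 (adjusted p = 0.0635). Of 13 genes that remove peroxide and superoxide 4 rose, among them *Prx6c*, a peroxiredoxin, by 1.69 and catalase, *Cat*, by 0.56. On the thorax-type scaling 1 of the 13 rose and 3 fell.

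Enzymes of urate and tyrosine breakdown were among the genes that rose. *Uro*, urate oxidase of the Malpighian tubule, had 105, 110 and 111 CPM in CBS(8) females, against 11.3, 10.8 and 8.17 CPM in control females (log2 fold change 3.43 ± 0.54 SE, adjusted p = 0.000193). In males it had 429, 474 and 595 CPM in CBS(8) flies, against 21.2, 19.4 and 31.2 CPM in control flies. Of the 9 genes of urate and purine breakdown 6 rose and 1 fell, the latter being *AOX4*, an aldehyde oxidase family gene, with 1 count in CBS(8) females against 35 in control females, and on the thorax-type scaling 2 rose and 2 fell. Of 10 genes of tyrosine and phenylalanine breakdown 7 rose and 1 fell, and 6 rose and 1 fell on the thorax-type scaling. They include successive steps of the pathway, *Tat* (log2 fold change 1.40), *Hpd* (1.92), *hgo* (1.36), *GstZ2* (1.86) and *Faa* (2.00). *Hpd* had 127, 115 and 142 CPM in CBS(8) females, against 28.4, 37.0 and 36.1 CPM in control females. *GstZ1*, the paralogue of *GstZ2* in the step that isomerises maleylacetoacetate, fell by 0.58, and *Tat*, *Hpd*, *hgo* and *GstZ2* were not called in males. A list of 17 tested oxidation-reduction genes taken from the study's own text, which chose them on these samples, had 14 higher and 1 lower, and on the thorax-type scaling 7 higher and 1 lower.

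Genes of the Malpighian tubule, the organ of excretion, were called higher more often than lower. Of 18 tubule genes, *Uro* among them, 10 rose and 1 fell, and 7 rose and 3 fell on the thorax-type scaling. *Irk3*, an inward rectifier potassium channel, had 29.5, 26.2 and 33.8 CPM in CBS(8) females, against 4.07, 9.29 and 3.48 CPM in control females (log2 fold change 2.40). *SecCl*, a chloride channel, had 34.7, 30.1 and 31.8 CPM in CBS(8) females, against 5.80, 6.66 and 8.11 CPM in control females (log2 fold change 2.23). The receptors for the diuretic peptides leucokinin and capa, *Lkr* and *CapaR*, rose by 2.14 and 1.91. All 4 also rose in males, by 1.60, 0.78, 1.31 and 1.82. Of 18 tested subunits of the vacuolar proton pump, which energises tubule secretion, 4 rose and 0 fell, against 16.6% and 8% of all genes. On the thorax-type scaling 2 of the 18 rose and 8 fell, against 6.9% and 49.5% of all genes.

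Digestive genes of the midgut were called higher more often than lower, as were thorax-type genes. Of that class 39.2% were higher and 1.9% lower, and 17.7% and 13.3% on the thorax-type scaling. It holds 25 of the 29 proteases, 7 of the 14 carbohydrases and 5 of the 6 lysozymes given here. Of 14 maltases and other carbohydrases 10 rose and 0 fell, with 6 and 0 on the thorax-type scaling. *Mal-A1* had 963, 722 and 873 CPM in CBS(8) females, against 134, 71.4 and 282 CPM in control females (log2 fold change 2.39). Of 29 midgut proteases 12 rose and 0 fell, with 6 and 3 on the thorax-type scaling. Their total level overlapped between the groups. The protease list summed to 8414, 8578 and 8916 CPM before TMM scaling in CBS(8) females, against 8702, 7105 and 2971 CPM in control females. Of 6 lysozymes 5 rose and 0 fell, with 3 and 1 on the thorax-type scaling. *LysC*, 1 of the 5 and annotated as a pseudogene, had 85.3, 79.9 and 82.9 CPM in CBS(8) females, against 0.0992, 0 and 0 CPM in control females. This is a ratio of 2598 (95% exact interval 719 to 21458, from 5130 and 2 counts). Lysozyme genes lie in a cluster of near copies, between which reads may be split by the counting. In males *LysC* rose by 3.98 on the log2 scale, and 18 of the 29 proteases rose against 3 of the 14 carbohydrases.

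Of 16 genes of fat body storage and lipid 4 rose and 3 fell, against 16.6% and 8% of all genes. On the thorax-type scaling 1 rose and 6 fell, against 6.9% and 49.5% of all genes. The larval storage genes *Lsp1beta* and *Lsp2* and the receptor gene *Fbp1* fell, whereas *Lsd-1*, a lipid droplet perilipin, rose by 1.89, and *FASN2*, *Desat1* and *Npc2d*, genes of fatty acid synthesis, desaturation and sterol handling, by 0.99, 0.57 and 1.29. *FASN2* was not called without control library 1 or 3 or CBS(8) library 1 (adjusted p up to 0.0683), nor *Npc2d* without control library 2 or 3 or CBS(8) library 1 or 3 (up to 0.115). *Lsp1beta* had 4.21, 9.45 and 9.07 CPM in CBS(8) females, against 90.7, 28.3 and 23.6 CPM in control females (log2 fold change -2.65, adjusted p = 0.0162, and -1.79 with 0.1 without control library 1). *Lsp2* had 1.99, 2.40 and 1.81 CPM in CBS(8) females, against 38.9, 2.25 and 44.4 CPM in control females. For *Lsp2* control library 2 overlapped the CBS(8) libraries, and without CBS(8) library 3 it was not called (adjusted p = 0.0513). Both also fell in males, with log2 fold changes of -4.01 for *Lsp1beta* and -4.24 for *Lsp2*. On the thorax-type scaling *Lsd-1* alone of the 4 higher genes was called, with 1.24.

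Blood cells, immunity and stress response followed. Of 16 genes of hemocytes and basement membrane 13 rose and 0 fell, with 6 and 1 on the thorax-type scaling. *eater*, a phagocytic receptor, had 8.07, 7.92 and 9.64 CPM in CBS(8) females, against 2.28, 2.84 and 2.11 CPM in control females (log2 fold change 1.82). *Col4a1*, a collagen IV chain, rose by 1.67. Of 6 imaginal disc growth factors, secreted chitinase-like proteins, 4 rose on both scalings, and *Idgf3* had 127, 115 and 129 CPM in CBS(8) females, against 35.9, 34.2 and 28.9 CPM in control females. *Idgf3* and *Idgf1* also rose in males, by 0.86 and 1.03.

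Of 14 bomanin and daisho genes, short peptides under the Toll pathway, 8 rose and 0 fell, with 2 and 1 on the thorax-type scaling. All 14 are thorax-type genes, a class with 39.2% higher on the all-gene scaling and 17.7% on the thorax-type scaling. *Dso1* had 402, 408 and 332 CPM in CBS(8) females, against 55.6, 46.3 and 57.7 CPM in control females (log2 fold change 2.84), and *BomS1* rose by 1.07. *PGRP-SA*, the recognition protein upstream of Toll, rose by 1.75. Among 9 tested antimicrobial peptides of the Imd pathway 3 rose, and *DptA* had 6.29, 9.76 and 12.9 CPM in CBS(8) females, against 0.645, 0.0424 and 1.21 CPM in control females. Of 8 small heat shock protein genes 2 rose, *Hsp23* by 2.91 and *l(2)efl* by 1.13, while 16.6% of all genes were higher. *Hsp23* had 51.4, 45.1 and 50.5 CPM in CBS(8) females, against 6.64, 5.13 and 7.75 CPM in control females, and had a log2 fold change of 0.02 in males. Of 12 larger chaperones 5 rose on the all-gene scaling and 1, *Hsp68*, on the thorax-type scaling.

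Of 11 metallothioneins and iron genes 8 rose and 0 fell. *MtnE*, *MtnD*, *MtnB* and *MtnC*, small cysteine-rich metal-binding proteins, rose by 3.17, 3.06, 2.22 and 1.79. *MtnE* had 25.8, 18.9 and 24.3 CPM in CBS(8) females, against 3.32, 1.65 and 2.69 CPM in control females. These 4 were also the members that rose on the thorax-type scaling, on which 2 fell. *ImpL2*, a secreted binding protein that restrains insulin signalling, had 128, 152 and 127 CPM in CBS(8) females, against 58.8, 51.7 and 48.2 CPM in control females (log2 fold change 1.36).

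**Figure D4:**
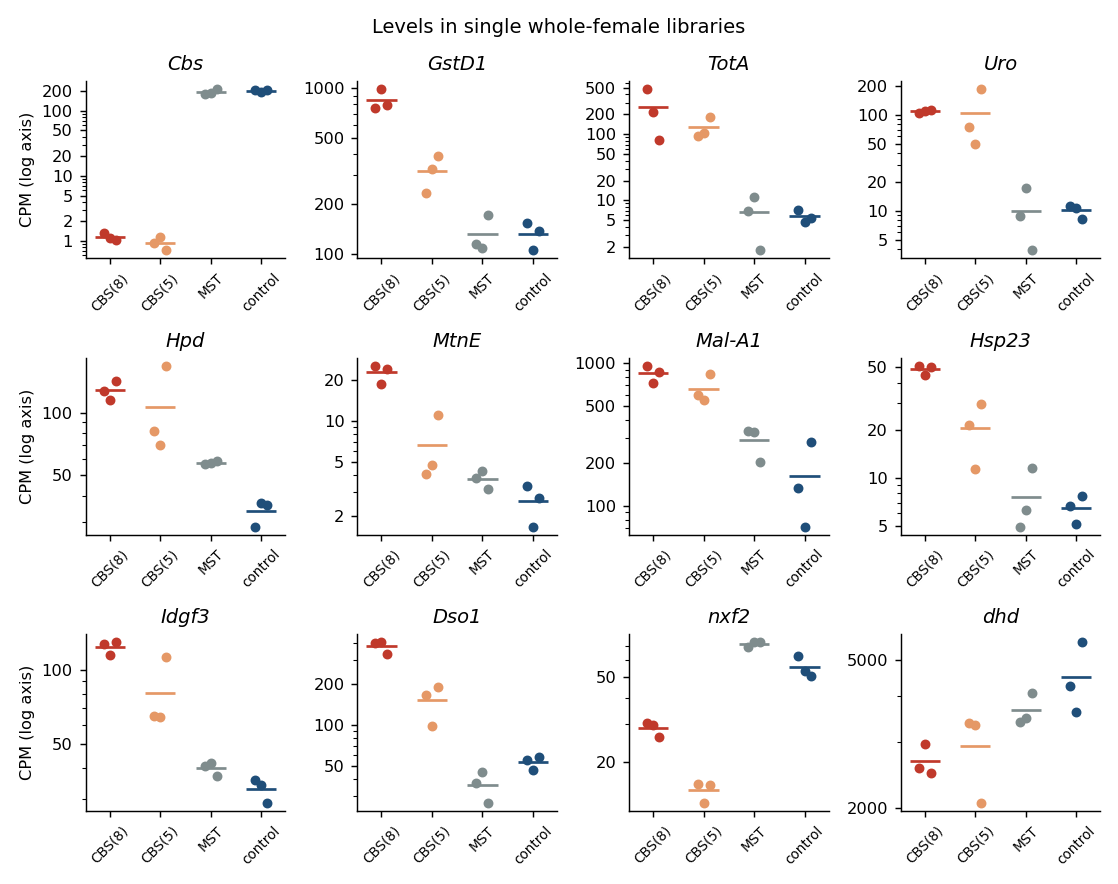
CPM on log axes in the single whole-female libraries of CBS(8), CBS(5), MST and control for 12 genes, with points for libraries and a line for the mean (n = 3). CBS(8) libraries lie above control libraries for the 9 genes from *GstD1* to *Dso1* and below them for *Cbs*, *nxf2* and *dhd*.

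Odour detection genes moved both ways. Of 30 tested 11 rose and 8 fell (median log2 fold change 0.64), and on the thorax-type scaling 7 rose and 11 fell. The 8 that fell on the all-gene scaling fell on every scaling. *Orco*, the co-receptor of most olfactory receptors, had 0.347, 0.307 and 0.259 CPM in CBS(8) females, against 2.48, 3.31 and 2.16 CPM in control females (log2 fold change -3.10, adjusted p = 0.000739). *Obp83a*, an odorant binding protein of the antenna, had 3 counts in CBS(8) females against 340 in control females, and its neighbour *Obp83b* 2 against 231. *Obp59a*, a binding protein that acts in humidity sensing, had 0 counts in CBS(8) females and was at least 5.10-fold lower, with 3 counts in a library as the limit. *Obp19a* had 1 count against 61, and *Obp28a*, *lush* and *Obp69a* fell by 2.67, 2.67 and 2.61, *lush* being the binding protein required for the response to the pheromone cis-vaccenyl acetate.

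The same 8 genes were called lower in males, where control levels were higher and the counts larger. *Obp83a* had 0.0751, 0 and 0 CPM in CBS(8) males, against 34.5, 39.9 and 40.0 CPM in control males. *Orco* had 1.13, 1.66 and 1.15 CPM in CBS(8) males, against 11.3, 12.4 and 10.7 CPM in control males. The 11 that rose in females include *Obp99b* (log2 fold change 2.60), *Obp57c* (1.77), *Obp99c* (1.63) and *Obp56d* (1.51), binding proteins found outside the antenna too, and 4 of the 11 rose in males. *Snmp1*, a membrane protein of pheromone-sensing neurons, had 6.42, 6.39 and 6.43 CPM in CBS(8) females, against 6.25, 7.21 and 8.96 CPM in control females, and was not called. Means in CBS(5) females were 0.800 CPM for *Orco* and 0.0708 CPM for *Obp83a*, and in MST females 1.99 and 5.41 CPM.

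**Figure D5:**
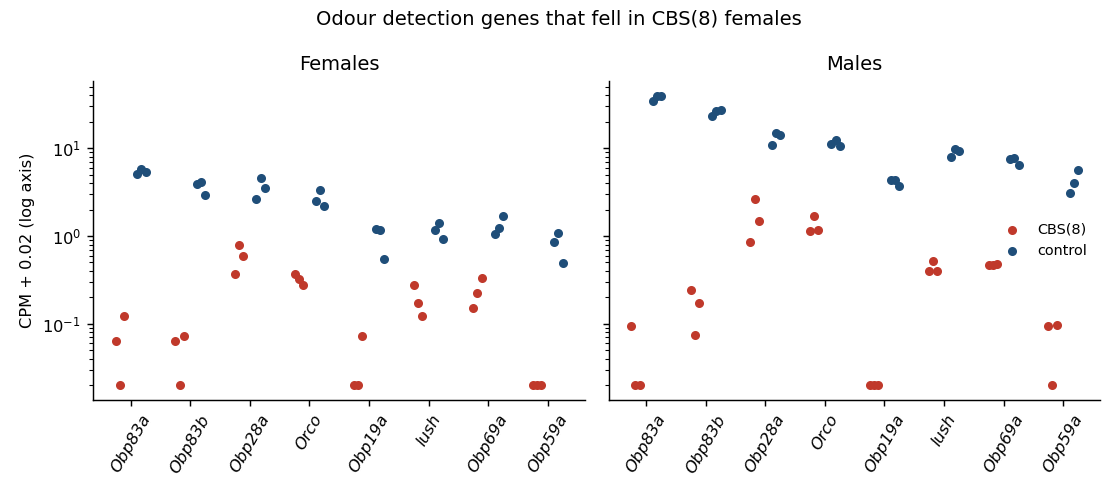
CPM with 0.02 added, on a log axis, of the 8 odour detection genes that fell in CBS(8) females, in single libraries of CBS(8) and control females (left) and males (right). CBS(8) libraries lie below all control libraries for each of the 8 genes in both sexes, and *Obp59a* was at 0 in all 3 CBS(8) female libraries.

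Eye genes, from another part of the head, mostly rose. Of 25 phototransduction genes 13 rose and 1 fell, with 8 and 3 on the thorax-type scaling. Of the 25, 21 are thorax-type genes, a class with 39.2% higher on the all-gene scaling and 17.7% on the thorax-type scaling. *Rh6*, a rhodopsin of the inner photoreceptors, had 8.89, 9.61 and 9.33 CPM in CBS(8) females, against 0.297, 0.382 and 0.738 CPM in control females (log2 fold change 4.30), and rose by 2.71 in males. *ninaE*, the major rhodopsin, had 1333, 1295 and 1487 CPM in CBS(8) females, against 529, 634 and 479 CPM in control females (log2 fold change 1.33). *trpl*, *ninaG* and *Pdh* rose by 1.64, 2.27 and 1.59 in females and were not called in males.

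Of 9 genes that the study's text names for pheromone response and reproduction, chosen there on these samples, 3 rose and 4 fell. *tut*, an RNA-binding factor of early male germ cells, had 6.29, 7.51 and 7.62 CPM in CBS(8) females, against 0.149, 0.382 and 0.263 CPM in control females (log2 fold change 4.70), and a log2 fold change of -0.17 in males. *Est-6*, an esterase known from the male ejaculatory duct, rose by 1.38 in females and fell by 0.63 in males. The 4 that fell were *Orco*, *lush*, *Obp69a* and *squ*.

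The largest changes by gene class were these. Among thorax-type genes with 5 CPM or more in the higher group and no overlap, *mat*, *TotA*, *TotC*, *CG16762*, *CG34198* and *CG13324* rose most, by 5.85 to 3.73. *mat* had 480, 388 and 471 CPM in CBS(8) females, against 10.2, 5.09 and 7.96 CPM in control females, and rose by 2.87 in males. *Gnmt*, *Lsp1beta*, *CtsL3*, *CG31955*, *CG6733* and *CARPB* fell most, by 2.66 to 2.05 on the log2 scale, and all 6 fell in males too. *CG6733* had 2.60, 3.37 and 5.13 CPM in CBS(8) females, against 15.5, 14.8 and 17.2 CPM in control females.

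Among ovary-type genes *CG15721*, *CG12708*, *XRCC1*, a DNA repair scaffold, *spd-2*, a centrosome gene, *Six4*, a homeobox gene, and *CG15820* rose most, by 1.67 to 1.08. *XRCC1* had 50.0, 58.4 and 50.1 CPM in CBS(8) females, against 19.2, 17.8 and 19.5 CPM in control females. Against MST females *XRCC1* had a log2 fold change of -0.26 and was not called. After *Cbs* the ovary-type genes that fell most were *lncRNA:CR43837*, *dpr6*, a cell surface protein of the immunoglobulin family, *CR44003*, *CG6508* and *CR14033*. *dpr6* had 3.77, 3.22 and 4.04 CPM in CBS(8) females, against 38.8, 47.7 and 54.8 CPM in control females (log2 fold change -3.68, adjusted p = 9.56e-09). *lncRNA:CR43837* had 1.86, 1.28 and 1.19 CPM in CBS(8) females, against 41.6, 44.2 and 56.7 CPM in control females.

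Some genes of no class were close to absent from one group. *Ser12*, a serine protease, had 8.07, 8.38 and 9.64 CPM in CBS(8) females and 0 counts in all control libraries, and was at least 55.0-fold higher, with 3 counts in a library as the limit (adjusted p = 9.69e-05 by edgeR and 0.15 by DESeq2). *CG11034* had 4209 counts in CBS(8) females and 1 in control females, and *CG15263* 715 and 2. *gNacalpha*, a germline form of a subunit of the nascent polypeptide-associated complex, went the opposite way, with 8 counts in CBS(8) females and 5160 in control females, 637 times fewer after scaling (95% exact interval 323 to 1476 for counting error only). In males *gNacalpha* was not called, with a log2 fold change of -0.28.

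Against MST females, a deletion strain with *Cbs* intact (184, 187 and 217 CPM), 1211 genes (11.5%) were higher in CBS(8) females and 444 (4.21%) lower. Without CBS(8) library 3 these counts were 733 and 249, and without MST library 3 725 and 263. This comparison shares the CBS(8) libraries with the first. Of the 1754 genes higher against control females 1041 (59.35%) were also called higher against MST females. Of the 844 lower genes 320 (37.91%) were also called lower. Against MST females 1 of 82 cytosolic ribosomal protein genes, 5 of 25 phototransduction genes and 6 of 16 hemocyte genes were higher. All 5 Turandot genes and 5 of 8 delta class glutathione transferases were higher too. *GstD1* was higher by 2.68, *TotA* by 5.31, *Uro* by 3.45, *Dso1* by 3.39 and *mat* by 6.97 on the log2 scale. Against control females the same genes were higher by 2.68, 5.51, 3.43, 2.84 and 5.85. *Cyp4p2* was higher by 1.91 and *CG11034* by 2.31, far less than against control females. *CG31955*, lower by 2.23 against control females, had a log2 fold change of 0.77 against MST females and was not called, and *GstE10* likewise was not called (-0.44). *Gnmt*, *Hsp68*, *Lsd-1* and *Lsp2* were also not called against MST females.

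Fewer genes were called between the 2 lines with *Cbs* deleted. Against CBS(5) females 251 genes (2.38%) were called, 152 higher and 99 lower in CBS(8) females. Without CBS(5) library 3, which stood apart in its ovary-type share, 642 were called, and without any 1 of the other libraries 121 to 157. *GstD1*, with 232, 326 and 387 CPM in CBS(5) females, was higher by 1.42 in CBS(8) females (adjusted p = 0.000447), and *mat*, *MtnE*, *Hsp23* and *Dso1* were higher by 1.82, 1.80, 1.24 and 1.33. *nxf2* was higher by 0.97, its level in CBS(5) females being 14.7 ± 1.67 CPM (SD, n = 3). *Uro*, with 103 ± 72.2 CPM in CBS(5) females, and *TotA*, with 127 ± 47.9 CPM, were not called between the lines, and CBS(5) library 3 was the highest of its group for both.

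Males gave a separate set of libraries. In CBS(8) males 1665 of 13036 tested genes (12.8%) were higher than in control males and 2549 (19.6%) lower. Without CBS(8) male library 2 the counts were 1334 higher and 1190 lower, without CBS(8) male library 1 999 and 1769, and without control male library 2 1000 and 1724. Of the 710 genes higher in females on the thorax-type scaling and tested in males, 335 (47.2%) were higher in males, which is 20.8% of the 1611 genes higher in males, and 30 were lower. Of the 1726 genes higher in females on the all-gene scaling and tested in males 536 (31.1%) were higher in males. Over all 10331 genes tested in both sexes 15.6% were higher in males and 10.7% lower. *Cth*, not called in females, rose by 1.22 on the log2 scale in males (adjusted p = 6.71e-06).

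Of the 6 tested genes on each side of *Cbs* 2 rose and 1 fell, against 16.6% and 8% of all genes, positions being given as distance from *Cbs* along the X chromosome. *Ser6* and *CG1304*, serine protease genes at -81.6 and -79.7 kb, rose by 1.11 and 1.56, and neither was called on the thorax-type scaling or without control library 1. The call of *Ser6* was lost in all 6 fits with a single library left out (adjusted p up to 0.106). *Stt3A*, at 0.789 kb and itself an ovary-type gene, fell by 0.34 and had a log2 fold change of -0.02 on the ovary-type scaling. *Mgstl*, at -1.03 kb, had 7.94, 9.81 and 6.58 CPM in CBS(8) females, against 8.97, 6.28 and 6.48 CPM in control females. *DNAlig4*, mutant in the control stock, had 27.1, 30.5 and 26.8 CPM in CBS(8) females, against 27.2, 21.8 and 26.9 CPM in control females.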

How the data were processed

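Reads were 75 bases long, single-end and from poly(A) RNA prepared with a directional kit. Per the submitters' processing notes and the study's methods the authors used Trimmomatic 0.38 for trimming and STAR 2.5.0a for mapping on dm6, and deposited the raw count of reads on each gene, 1 library at a time, made with featureCounts 1.5.0-p1. The annotation release and strand setting are not given in the sources used here, so reads of overlapping and antisense genes may be mixed, and reads on more than 1 gene (4.08% to 4.39% in the 6 libraries) were left out. Of 17559 gene identifiers 17253 were matched to a symbol and position.

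Counts of 21 whole-female libraries (7 strains) were fitted together with edgeR 4.0.16 in R 4.3.3, with 1 mean for each strain, TMM factors, filterByExpr (minimum count 10, minimum total 15), the quasi-likelihood test and Benjamini-Hochberg adjustment over 10548 genes. Males were fitted likewise over 13036 genes. A standard error is the log2 fold change over the root of F. The other scalings took the TMM factors from thorax-type or ovary-type genes only. The fit was also run on simulated counts, and the outcome is not reported here. Gene groups, members and the named genes were chosen with earlier results of these data known. Named are the targeted and stock genes, the largest changes in each class with 5 CPM or more and no overlap, up to 4 changed members of a list in each direction, genes of the study's text, and neighbours of *Cbs*. The list of DNA repair genes is not reported here. Ratios of sparse counts carry exact intervals for counting error only. Alternatives were DESeq2 1.42.0, upper-quartile factors, other filters, the exact test, a fit of the 2 groups, a replicate block, other class definitions and single libraries left out. Columns of no other sample were used. Alternatives with only thorax libraries 2 and 3, and the CBS(5) comparison scaled on thorax-type genes, were chosen after seeing the data.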

Additional observations from a re-analysis of the deposited data

Results flagged for a closer look

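Of 133 genes named here 26 differed between CBS(8) and CBS(5) females, the 2 lines with *Cbs* deleted, by the test of that difference (edgeR's quasi-likelihood test). The first 6 given were named for the largest differences between these lines. *Ser12* had 8.07, 8.38 and 9.64 CPM in CBS(8) females and 0 in all CBS(5), MST and control females, and its fitted log2 difference of 10.62 depends on the prior count. *Cyp4p2* was higher by 7.01 (adjusted p = 3.4e-06), with 0.255, 0.0347 and 0.0451 CPM in CBS(5) females. *DptA* was higher by 4.50 (adjusted p = 0.00256), with 0.383, 0.312 and 0.586 CPM in CBS(5) females.

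*gNacalpha* had a log2 difference of -6.80 (adjusted p = 0.000287), with 0.130, 0.102 and 0.156 CPM in CBS(8) females, against 9.58, 19.2 and 16.3 CPM in CBS(5) females. MST females had 1.31, 0.450 and 2.40 CPM and control females 73.6, 101 and 68.2 CPM, so all 4 strains differed in level. *lncRNA:CR45128* had a log2 difference of -4.62, with 0.434, 0.255 and 0.363 CPM in CBS(8) females, against 7.62, 8.40 and 10.5 CPM in CBS(5) females. *Smyd4-3* had a log2 difference of -3.74, with 2.56, 3.01 and 3.27 CPM in CBS(8) females, against 20.5, 20.8 and 77.0 CPM in CBS(5) females and 3.12, 3.99 and 3.27 CPM in control females.

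The other 20 had smaller differences. *CG13324*, *CG16762*, *mat*, *MtnE*, *MtnD*, *Cyp313a1* and *GstE5* were higher in CBS(8) females by 2.98, 1.87, 1.82, 1.80, 1.74, 1.67 and 1.62 on the log2 scale, *GstD1*, *Dso1*, *Hsp23*, *spd-2*, *SecCl*, *Obp56d* and *nxf2* by 1.42, 1.33, 1.24, 1.17, 1.00, 0.99 and 0.97, and *ImpL2* and *Sam-S* by 0.78 and 0.40. *lncRNA:CR43837*, *tut*, *CR44003* and *GstZ1* had log2 differences of -1.32, -1.30, -1.02 and -0.67.

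*Est-6* was higher in all CBS(8) females than in all control females and lower in all CBS(8) males than in all control males, with 920, 733 and 911 CPM in CBS(8) males, against 1250, 1223 and 1498 CPM in control males (log2 fold change -0.63). The difference between the sexes was not tested.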

How the results depend on the processing

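The ovary-type share stayed lower in CBS(8) females under every alternative, with a difference between -7.12 and -2.09 points under looser and stricter class definitions and between -4.45 and -4.04 points without single libraries. For CBS(8) against control females on all genes, 2598 genes were called in the fit of 21 libraries, 4662 with only the 2 groups, 4703 with the exact test and 1285 at an absolute log2 fold change of at least 1, and 1516 to 2171 without single libraries. On the thorax-type scaling 5948 genes were called, and 1003 to 4803 without single libraries. On the ovary-type scaling 2295 were called, 4917 with only the 2 groups and 907 to 1560 without single libraries. Against MST females 1655 were called, 3919 with only the 2 groups and 982 to 1263 without single libraries. Against CBS(5) females 251 were called, 397 with DESeq2, 50 with only the 2 groups, 642 without CBS(5) library 3 and as few as 121 without CBS(8) library 3. In males 4214 were called, 1542 at an absolute log2 fold change of at least 1 and 2524 to 5144 without single libraries. The cause of these moves was not tested.

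Replicate numbers did not pair the samples (correlations of same-numbered libraries -0.207, -0.387 and -0.209), and with a replicate block 2824, 6478, 2766, 1817, 258 and 4079 genes were called in the same 6 comparisons. Of 123 called genes that the text names 27 lost their call without at least 1 library (adjusted p up to 0.18), and 14 of the 27 had an absolute log2 fold change above 1, among them *Lsp2*, *Gnmt*, *Lsp1beta*, *TotM* and *Obp99b*. *Ser12* was not called by DESeq2 (adjusted p = 0.15). Small changes took the opposite sign on another scaling. On thorax-type genes *Bhmt*, *Cat*, *Desat1*, *Gclm*, *Gclc* and *Sam-S* had log2 fold changes of -0.10, -0.14, -0.15, -0.26, -0.37 and -0.34, *Cth*, *DNAlig4* and *Mgstl* of -0.64, -0.55 and -0.52, and *Yp1*, *Yp2* and *Yp3* of -0.093, -0.30 and -0.65. On ovary-type genes *CG12279*, *Smyd4-3* and *Snmp1* had 0.026, 0.086 and 0.11. *Yp3* ranged from -0.13 to 0.29 without single libraries.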
